A study of Caenorhabditis elegans with 18 samples.

Results

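The comparison is between the daf-16 mutant strain and the wild type N2 kept at 20 °C, without heat. It rests on 4 of the 18 samples of the series, the 2 daf-16 libraries and the 2 N2 libraries at 20 °C that are labelled replicate 2 and 3. RNA was sequenced from whole Caenorhabditis elegans on day 1 of adulthood, grown from larvae synchronised at the L1 stage on a lawn of OP50-1 bacteria. The strains are CF1038 with genotype daf-16(mu86), RB711 with genotype pqm-1(ok485), and N2 Bristol. Each mutant allele is represented by 1 strain, so the allele and the rest of the strain's background cannot be told apart. Other groups of the same 3 strains were exposed to 35 °C for 1 h and collected after 2 h of recovery at 20 °C, and they are used here only where they bear on the 20 °C difference.

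DAF-16 is the FOXO transcription factor of the worm and acts downstream of the insulin receptor DAF-2. Signalling through DAF-2 and the AKT kinases keeps DAF-16 out of the nucleus, and genes that need DAF-16 for their expression are called class I, while those that are higher when DAF-16 is lost are called class II. PQM-1 is a zinc finger transcription factor that is known to bind a sequence element found before many class II genes. In well-fed adults most DAF-16 is cytoplasmic, and the 20 °C comparison addresses how the mutant strain differs from N2 without added stress.

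At the gene level the 4 libraries held 21416164 and 21374473 counts in daf-16 and 20709897 and 23980173 counts in N2. The first value column of the table bears the name of daf-16 20 °C replicate 1 but holds coding lengths: it equals the annotated coding length in 12639 of 13204 genes (95.7%), against at most 0.0303% in any other column. Sample names would then stand 1 column too early, and a library labelled replicate 1 would belong to the group named before it. Strain markers in those libraries stood at the level of the group named before. The library labelled N2 20 °C replicate 1 had C32E8.9 at 2.49 CPM, against 2.15 and 2.79 CPM in heated daf-16 and 23.4 and 22.9 CPM in N2 at 20 °C. The library labelled pqm-1 20 °C replicate 1 had dod-21 at 1.49 CPM, against 10.5 and 11.6 CPM in the pqm-1 libraries used and 1.02 and 1.198 CPM in heated N2. Columns labelled replicate 2 and 3 keep their group under both readings, so only these were used, and their replicate numbers may be shifted by 1. Between the 2 replicates of a strain, gene counts differed beyond counting noise, since chi-square divided by its degrees of freedom was 9.25 in daf-16 and 13.4 in N2. The labels call the samples biological replicates and do not say which worms were grown together. In whole worms, fewer cells of a type and less RNA per cell cannot be told apart.

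The daf-16 gene itself was counted in both strains, but its transcript rows differed between them. The table has 3 rows for daf-16, which match by coding length the annotated isoforms f (1554 bases, 11 coding exons), d (1464 bases, 10 coding exons) and a (1593 bases, 6 coding exons), and 5 coding exons are common to all 3. The rows overlap in their reads, so the difference between the counts of rows f and a is a net one. The row of isoform f held 2433 and 2024 counts in daf-16, against 2116 and 2110 counts in N2. The row of isoform a held 2399 and 1995 counts in daf-16, against 1594 and 1610 counts in N2. Row f thus exceeded row a by 34 and 29 counts in daf-16, against 522 and 500 counts in N2, which is 1.40% and 1.43% of row f in daf-16 and 24.7% and 23.7% in N2. The groups were far apart in this difference, and the pqm-1 strain at 20 °C, with 543 and 568 counts, stood with N2. Heated daf-16 worms again had few such counts, 42 and 42.5, against 705 and 971 in heated N2. The mu86 allele is known as a deletion within daf-16, and the gene-level log2 fold change, taken from row f, was 0.14 ± 0.10 (SE, edgeR quasi-likelihood test, adjusted p = 0.509). With each gene taken as its longest transcript, which for daf-16 is row a, it was 0.52 and called (edgeR adjusted p = 0.0353).

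**Figure D1:**
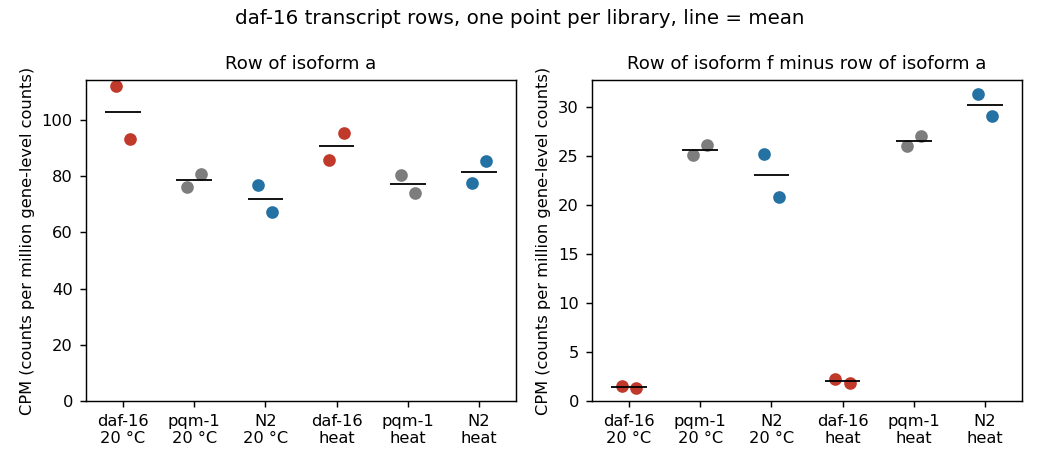
CPM (read counts scaled to library depth) of the daf-16 row of isoform a (left) and of the excess of the row of isoform f over it (right), with 1 point per library and a line at the mean of 2 libraries. The excess was 1.59 and 1.36 CPM in daf-16 at 20 °C, against 25.2 and 20.9 CPM in N2 at 20 °C, while row a was higher in daf-16 (112.0 and 93.3 CPM) than in N2 (76.97 and 67.1 CPM).

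Between daf-16 and N2 at 20 °C, 355 of 14278 tested genes (2.49%) had an adjusted p under 0.05 in edgeR's quasi-likelihood test, and these are the genes referred to as called. Of these, 240 rose (1.68% of the genes tested) and 115 fell (0.805%) in daf-16. Most changes were small: the median size among called genes was 0.65 on the log2 scale, and 55 called genes changed by at least 1, 42 upwards and 13 downwards. The 4 values did not overlap between strains in 7279 tested genes (51%), and in every one of the 355 called genes. The count depended on single libraries. It was 5 genes without daf-16 replicate 2 (3 higher, 2 lower), 260 without daf-16 replicate 3, 48 without N2 replicate 2 and 27 without N2 replicate 3. The 4 genes called in all 4 of these fits were haf-6, Y102A5C.36, Y92H12BL.1 and C32E8.9, and every other called gene lost its call in at least 1 of them.

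**Figure D2:**
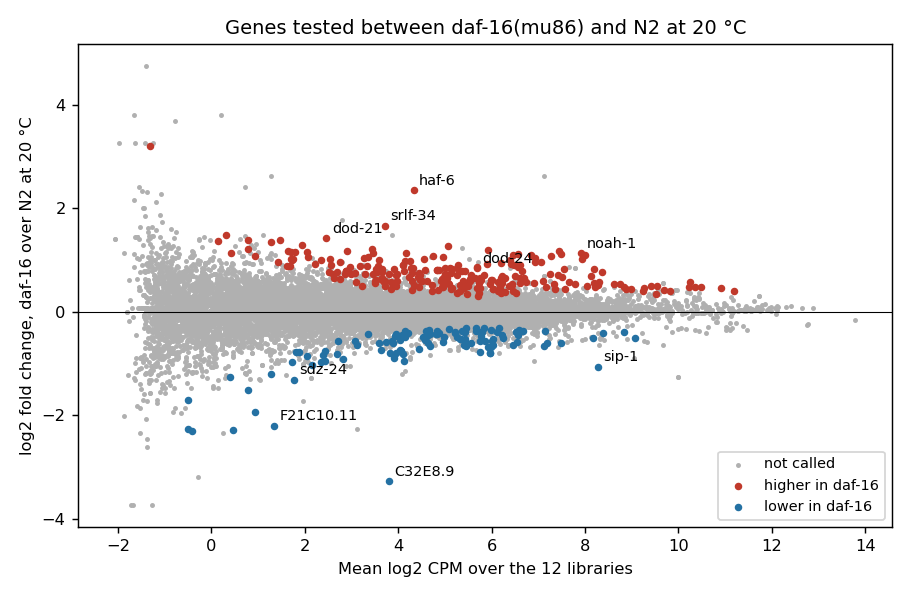
Log2 fold change of daf-16 over N2 at 20 °C (vertical axis) against mean log2 CPM over the 12 libraries (horizontal axis), with 1 point per tested gene and called genes in colour. C32E8.9 at -3.28 and haf-6 at 2.35 lie far from the other genes of similar level.

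The rise with the smallest adjusted p was that of haf-6, which encodes an ABC transporter known for its part in efficient RNA interference. It stood at 52.3 and 53.6 normalised CPM (read counts scaled to library depth with TMM factors) in daf-16, against 9.87 and 10.8 in N2. Both daf-16 libraries were thus about equally high, and the log2 fold change was 2.35 ± 0.11 (SE, n = 2 against 2, edgeR adjusted p = 5.75e-07). The fall with the smallest adjusted p was that of C32E8.9, with 2.13 and 2.70 normalised CPM in daf-16, against 24.2 and 22.9 in N2. Its log2 fold change was -3.28 ± 0.15 (edgeR adjusted p = 5.75e-07). Y92H12BL.1 had 59.2 and 58.9 normalised CPM in daf-16, against 35.3 and 33.7 in N2, a log2 fold change of 0.77 ± 0.07. Y102A5C.36 had 6.52 and 7.77 in daf-16, against 2.64 and 3.17 in N2, a log2 fold change of 1.29 ± 0.16. The spread between replicates of these 4 genes was small beside the difference between strains.

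Below haf-6, the largest rises by the naming rule were those of srlf-34, dod-21, cld-1, F25D1.3, Y102A5C.36, cdh-7, col-46, cdh-10, col-176, F26D11.2, cyp-35A3, col-47, F33H2.8 and T12E12.6. The genes cdh-7 and cdh-10 encode cadherins, col-46, col-47 and col-176 encode cuticle collagens, and cyp-35A3 encodes a cytochrome P450. Their log2 fold changes ran between 1.66 for srlf-34 and 1.15 for T12E12.6. In cdh-7 the libraries read 44.3 and 29.6 normalised CPM in daf-16, against 19.8 and 11.0 in N2. In cyp-35A3 they read 14.4 and 16.9 in daf-16, against 5.48 and 8.38 in N2. The replicates of cdh-7 differed by about as much within a strain as the nearest libraries of the 2 strains did. The gene srx-41 was called with few reads, 14 counts in each daf-16 library, against 2 and 1 in N2, so its fitted fold is not quoted.

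By the same rule, which asks for a mean log2 CPM of at least 1, the largest falls after C32E8.9 were those of F21C10.11, sdz-24, F14H3.5, sip-1, C33A12.19, F19B10.1, clc-24, cyp-33C8, C27C12.3, ttr-42, citk-1, ssp-37, C04H5.7 and E02H4.6, with log2 fold changes between -2.21 and -0.81. Below that level the C-type lectin gene clec-82 was called lower, with 0.189 and 0.241 normalised CPM in daf-16, against 0.947 and 1.17 in N2. It had few reads, so its fitted fold is not quoted. The gene sip-1 encodes a small heat shock protein of embryos and is the most abundant of these, with 178 and 226 normalised CPM in daf-16, against 471 and 372 in N2. Its log2 fold change was -1.06 ± 0.19 (edgeR adjusted p = 0.0193). The gene cyp-33C8, a cytochrome P450, had 14.5 and 14.9 normalised CPM in daf-16, against 30.4 and 26.9 in N2, a log2 fold change of -0.96 ± 0.13. F21C10.11, with a coding length of 243 bases, had 0.425 and 0.434 normalised CPM in daf-16, against 1.54 and 2.42 in N2. The gene clc-24, of the claudin-like family, had 2.46 and 2.80 in daf-16, against 5.13 and 5.17 in N2.

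**Figure D3:**
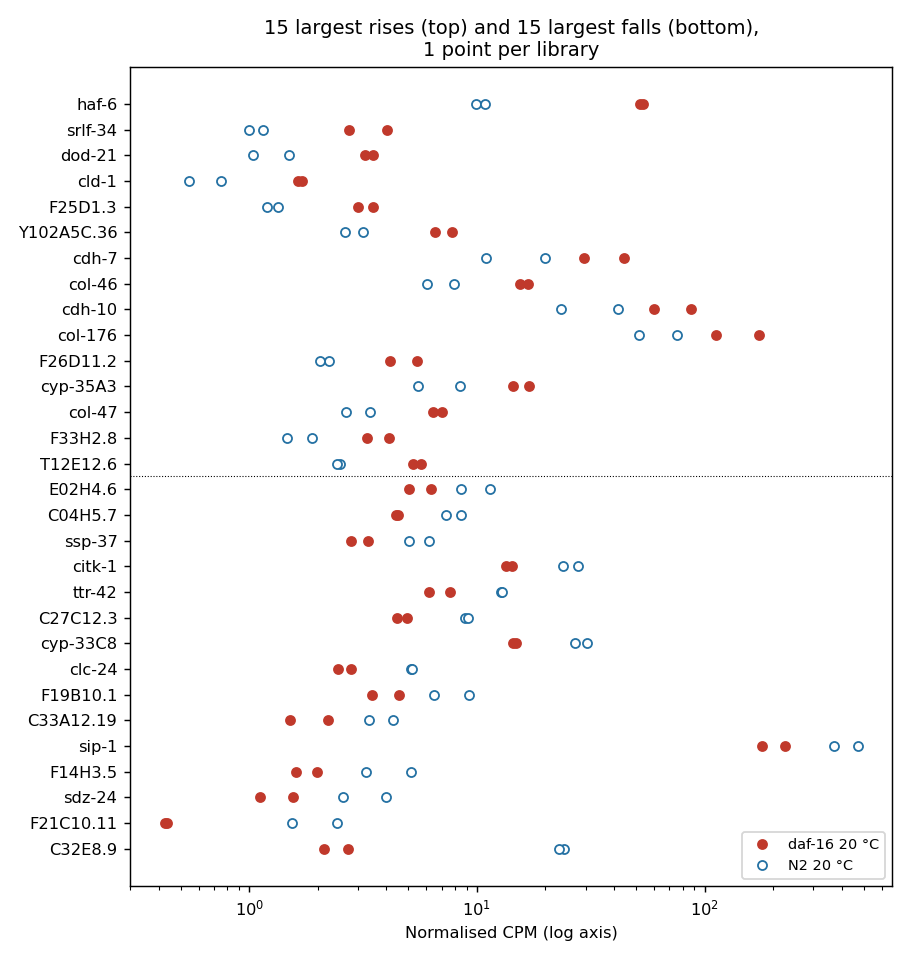
Normalised CPM on a log axis of the 15 largest rises (above the dotted line) and 15 largest falls (below it) among called genes with a mean log2 CPM of at least 1, with filled points for the 2 daf-16 libraries and open points for the 2 N2 libraries at 20 °C. The filled and open points of haf-6 and C32E8.9 stand several fold apart, while those of E02H4.6 and F33H2.8 lie close.

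The lists of the insulin pathway and of DAF-16 partners held no called change. None of 7 tested insulin-like ligands, 11 receptor and kinase genes and 14 DAF-16 partners or modifiers was called in either direction. With 2.49% called among all genes tested, lists this short can hold no call, so the absence says little about the pathway. The receptor gene daf-2 had 42.2 and 37.4 normalised CPM in daf-16, against 66.0 and 25.3 in N2, so the N2 replicates differed more than the strains. The kinase gene akt-1 had 84.1 and 85.9 in daf-16, against 103.0 and 94.1 in N2, a log2 fold change of -0.21 ± 0.08 (edgeR adjusted p = 0.163). Outside these lists, the insulin-like peptide gene ins-26 fell, with 1.89 and 2.03 normalised CPM in daf-16, against 3.34 and 3.38 in N2. It was the 1 gene called among 20 tested with an ins name, beside 0.805% called lower among all genes tested.

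Of 18 tested class I genes, 0 rose and 1 fell, which was sip-1, beside 1.68% called higher and 0.805% lower among all genes tested. The median log2 fold change of the 18 was -0.09, against 0.0034 over all genes tested. The superoxide dismutase gene sod-3, a widely used class I gene, had 2.88 and 3.09 normalised CPM in daf-16, against 4.04 and 4.71 in N2. Its values did not overlap, but its log2 fold change of -0.56 ± 0.17 was not called (edgeR adjusted p = 0.0995). The lysozyme gene lys-7 had 103.6 and 93.4 in daf-16, against 170.7 and 146.5 in N2, with a log2 fold change of -0.69 ± 0.26 (adjusted p = 0.176). The metallothionein gene mtl-1 was hardly detected at 20 °C, with 2 and 4 counts in daf-16, against 6 and 10 counts in N2. The 2 catalase genes of the list, ctl-1 and ctl-2, and the glyoxylate cycle gene icl-1 lay within 0.13 of 0 on the log2 scale. None of 21 antioxidant enzyme genes was called.

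Of 10 tested class II genes, 3 rose and 0 fell: dod-17, dod-21 and dod-24, genes named for being downstream of DAF-16. The gene dod-24 had 108.7 and 91.5 normalised CPM in daf-16, against 52.1 and 59.3 in N2, a log2 fold change of 0.84 ± 0.10 (edgeR adjusted p = 0.00964). The gene dod-17 had 59.3 and 54.3 in daf-16, against 34.3 and 37.5 in N2, a log2 fold change of 0.66 ± 0.11. The gene dod-21 was weakly expressed, at 3.496 and 3.23 in daf-16, against 1.50 and 1.04 in N2, with a log2 fold change of 1.42 ± 0.22. Among the members not called, dod-19 stood at 381.1 and 367.1 in daf-16, against 333.7 and 373.6 in N2. The gene dod-22 missed the threshold, with 14.3 and 14.1 in daf-16, against 7.97 and 10.6 in N2 (log2 fold change 0.61 ± 0.15, edgeR adjusted p = 0.0597). The median of the 10 was 0.14. Among all genes tested, 1.68% were called higher and 0.805% lower.

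Genes of the larval moult were among the rises. Nematodes replace their cuticle at each larval moult, and these genes encode the apical matrix, its enzymes and their regulators. Of 16 tested larval moulting genes, 10 rose and 0 fell, beside 1.68% called higher and 0.805% lower among all genes tested. The list was chosen with earlier results of these data known, so its count is a description and no test. All 16 had a log2 fold change above 0, with a median of 0.72, while 7230 of all 14278 genes lay above 0. The 10 were the zona pellucida domain matrix genes noah-1, noah-2 and let-653, the protease inhibitor gene mlt-11, mlt-8, the patched-related gene ptr-4, the hedgehog-related genes qua-1 and wrt-10, and the collagen genes bli-1 and bli-2. The gene noah-1 had 374.2 and 276.9 normalised CPM in daf-16, against 178.9 and 119.1 in N2, a log2 fold change of 1.13 ± 0.18 (edgeR adjusted p = 0.0128). The gene ptr-4 had 101.3 and 83.5 in daf-16, against 56.4 and 58.9 in N2, a log2 fold change of 0.68 ± 0.09. The fibrillin gene fbn-1 was not called, with 70.9 and 35.96 in daf-16, against 41.3 and 14.4 in N2, and its replicates differed about as much as the strains. The nuclear receptor gene nhr-23, a regulator of moulting, was level at 58.8 and 47.7 in daf-16 and 52.0 and 50.4 in N2.

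The moulting list was also averaged by library. Averaged over the 16 genes as log2 of normalised CPM plus 0.5 relative to each gene's mean over 12 libraries, the list stood at 0.48 and 0.10 in daf-16, against -0.30 and -0.51 in N2. The pqm-1 libraries at 20 °C read 0.09 and 0.18. Both daf-16 libraries were above both N2 libraries, and daf-16 replicate 2 was the highest of the 12. Without that library 0 of the moulting genes were called, and without N2 replicate 3 there were 2, while 7 were called without N2 replicate 2 and 10 without daf-16 replicate 3.

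Some cuticle genes beyond the moulting list were called as well. Of 9 tested hypodermis and cuticle markers, 5 rose and 0 fell: the collagen genes dpy-5, dpy-7, dpy-13, rol-6 and sqt-3. The gene dpy-7 had 126.9 and 116.7 normalised CPM in daf-16, against 72.4 and 58.0 in N2, a log2 fold change of 0.90 ± 0.17 (edgeR adjusted p = 0.0201). The adult collagens of the list went the other way in value without being called, as in col-19 with 1407 and 1993 in daf-16, against 2125 and 2067 in N2 (log2 fold change -0.30 ± 0.13). Of the 123 tested genes with a col name, 16 rose and 1, col-42, fell, while 44 had a log2 fold change below 0, with a median of 0.30. Collagen genes are alike in sequence, and reads were divided between genes in several of them, so single members are uncertain. The 16 became 0 without daf-16 replicate 2 or without N2 replicate 3, 3 without daf-16 replicate 3 and 2 without N2 replicate 2. Among 9 warthog hedgehog-related genes 5 rose, and among 21 patched-related genes 4 rose, with none lower in either family. These include wrt-10 and ptr-4, which are also in the moulting list and were counted there. These list and family counts stand beside 1.68% called higher and 0.805% lower among all genes tested. They are no test either, since lists and members were chosen with earlier results of these data known.

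Further called rises were picked after their values were seen, from no fixed list, so they carry no count of similar genes that did not rise. They are the collagen genes dpy-2, dpy-8, dpy-9, dpy-10, sqt-2 and rol-8, the lipocalin-related genes lpr-1, lpr-3, lpr-4, lpr-5 and lpr-6, and the leucine-rich repeat genes sym-1 and let-4. The prolyl hydroxylase genes dpy-18 and phy-2, which modify collagen in the endoplasmic reticulum, rose by 0.70 and 0.56 on the log2 scale. Their partner pdi-2, a protein disulphide isomerase, rose by 0.39, with 2557 and 2295 normalised CPM in daf-16, against 1863 and 1835 in N2. The gene sym-1 had 276.8 and 212.2 in daf-16, against 132.0 and 100.2 in N2.

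Oocyte and eggshell genes had lower values in daf-16, and few were called. Of 18 tested, 0 rose and 2 fell, beside 1.68% called higher and 0.805% lower among all genes tested. This list too was chosen with earlier results of these data known. All 18 had a log2 fold change below 0, with a median of -0.53, while 7038 of all 14278 genes lay below 0. The vitelline layer gene perm-4 had 474.1 and 597.0 normalised CPM in daf-16, against 763.0 and 758.5 in N2 (log2 fold change -0.51 ± 0.11, edgeR adjusted p = 0.0449). The gene egg-4, a pseudophosphatase gene of egg activation, had 79.8 and 91.8 in daf-16, against 125.3 and 110.2 in N2 (-0.46 ± 0.11, adjusted p = 0.0481). The chondroitin proteoglycan gene cpg-1 showed the lowest value of the list but was not called, with 429.5 and 474.5 in daf-16, against 880.5 and 811.1 in N2 (-0.90 ± 0.22, adjusted p = 0.0589). By library the list averaged -0.16 and 0.13 in daf-16, 0.29 and 0.26 in pqm-1, and 0.66 and 0.42 in N2, on the relative scale used for the moulting genes. The RNA-binding protein genes puf-6 and puf-7, picked after their values were seen, fell by 0.68 and 0.65 on the log2 scale.

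Other markers of the germ line and of the major tissues did not produce calls. With 2.49% called among all genes tested, lists this short can hold no call, so the absence says little about these tissues. None of 14 germline markers, 20 sperm genes, 11 intestine, 9 body wall muscle, 11 neuron and 10 pharynx markers was called. Their summed level ranged, for the germline list, over 4032 and 4095 normalised CPM in daf-16, against 4359 and 4074 in N2. All 9 muscle and all 11 neuron markers had log2 fold changes above 0, with medians of 0.10 and 0.13. The 4 tested vitellogenin genes, which encode yolk proteins, had a median of -0.27 with none called. The moulting, adult collagen and oocyte genes are also markers of developmental stage, and the part of stage in the result was not tested.

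**Figure D4:**
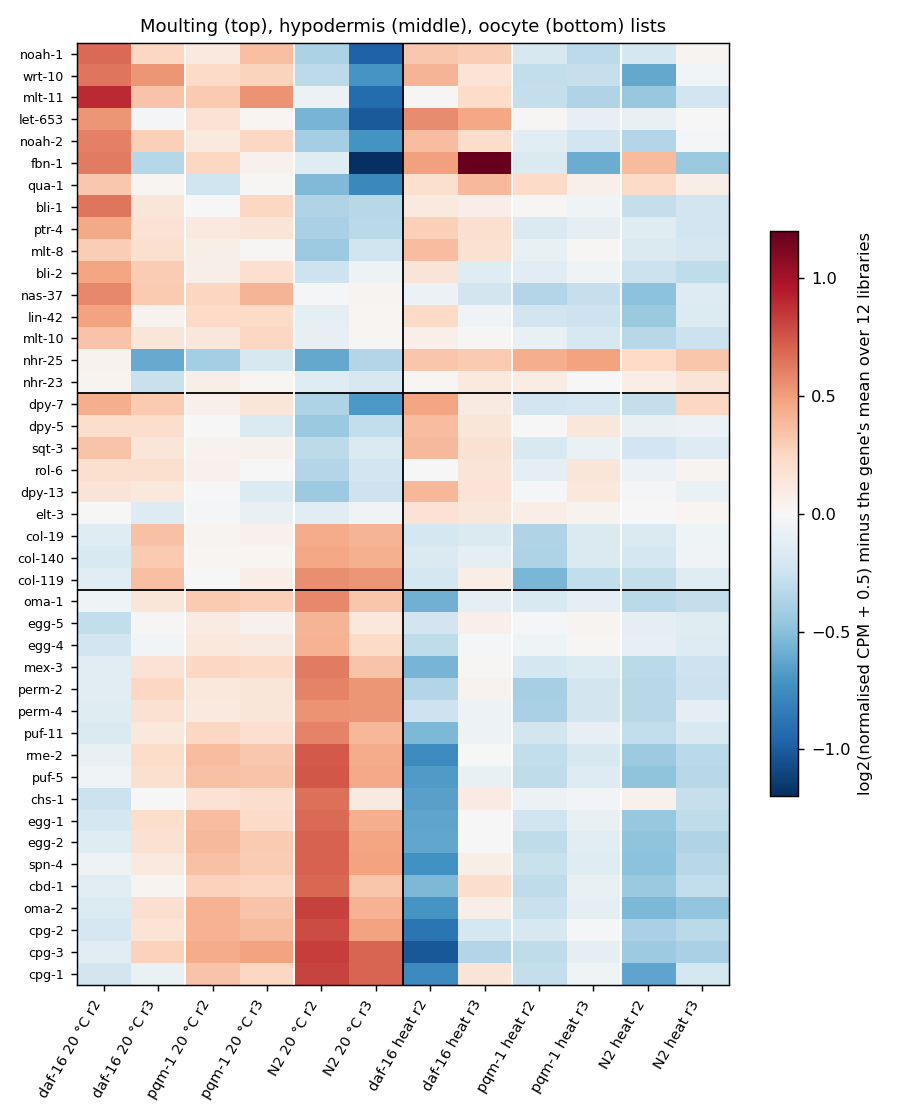
Level of the moulting, hypodermis and oocyte lists (rows, 1 per gene, ordered within a list by log2 fold change at 20 °C) in the 12 libraries (columns), as log2 of normalised CPM plus 0.5 minus the gene's mean. Red lies above that mean and blue below it. At 20 °C the moulting list averaged 0.48 and 0.10 in daf-16, against -0.30 and -0.51 in N2. Values did not overlap in 13 of its 16 genes, beside 51% of all genes tested. The oocyte list averaged -0.16 and 0.13 in daf-16, against 0.66 and 0.42 in N2.

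The direction of the calls differed with coding length. The length classes hold only tested genes with a mean log2 CPM of at least 1. Of 430 such genes with more than 4000 coding bases, 8 were called, all higher in daf-16. Over all 14278 genes tested, without that limit on level, 1.68% were called higher and 0.805% lower. Of 1750 genes with more than 2000 and up to 4000 bases 58 were called higher and 6 lower. Of 4511 genes with more than 1000 and up to 2000 bases, 86 were called higher and 42 lower, and of 3171 genes with more than 500 and up to 1000 bases, 67 were called higher and 31 lower. Of 1644 genes with up to 500 bases, 14 were called higher and 29 lower. Genes over 4000 bases had a median relative level of 0.04 and -0.16 in daf-16, against 0.08 and -0.34 in N2, so both strains hold 1 library that is lower in long genes. In the moulting list 10 of 16 genes exceed 2000 bases, with a median of 2262, against a median of 1074 over all genes tested. None of the 9 hypodermis and cuticle markers does. The part of coding length in these results was not tested.

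The counts in the stress and metabolic lists stand beside the 2.49% called among all genes tested. Of 22 heat shock protein genes, 3 were called: hsp-3 and hsp-17 rose, by 0.34 and 0.39 on the log2 scale, and sip-1 fell. Of 25 pathogen response genes 3 rose and 0 fell: irg-1, irg-4 and the antimicrobial peptide gene nlp-31. The gene irg-4 had 23.4 and 19.3 normalised CPM in daf-16, against 10.2 and 13.5 in N2, a log2 fold change of 0.84 ± 0.14. Of 19 genes of fatty acid breakdown, 1 rose, the acyl-CoA synthetase gene acs-22, by 0.43. None of 16 fatty acid synthesis, 25 sugar metabolism and 21 autophagy and lysosome genes was called. The desaturase gene fat-7, for one, had 99.9 and 125.5 in daf-16, against 105.7 and 113.7 in N2.

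Some called genes lay side by side in the annotation. There were 25 runs of neighbouring coding genes called in the same direction with at most 1 gene between them. Of these, 17 were higher and 8 lower, holding 59 genes, and with no gene allowed between there were 15 runs. The lower runs include nspa-4 with nspa-1 and nspa-5 with nspa-3, genes that share reads and are uncertain as separate genes. The genes lpr-3, lpr-6, lpr-5 and lpr-4 formed a run that rose. The genes Y62H9A.3, Y62H9A.4, stha-3 and ule-5 formed a run that fell, in which ule-5 had 126.8 and 171.4 normalised CPM in daf-16, against 238.2 and 218.3 in N2. The genes cld-1, dod-21 and dod-24 formed another run that rose. They do not overlap in the annotation, but cld-1 had divided reads in 5 of the 12 libraries, so its count is uncertain. Genes overlap in the run of col-46, col-47 and Y18H1A.9 and in that of gmeb-2 and F53H4.3. The table gives no strand, so the reads of overlapping genes cannot be told apart.

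The same strains after heat were measured in other libraries. There 156 genes were called between daf-16 and N2 (1.09% of those tested), 76 of them higher (0.532%) and 80 lower (0.56%) in daf-16. Without 1 heated library the count was 50 (daf-16 replicate 2 left out), 383 (daf-16 replicate 3), 220 (N2 replicate 2) or 34 (N2 replicate 3). Of the 156, 37 were also called at 20 °C, all in the same direction, 21 higher and 16 lower. They make up 10.4% of the 355 genes called at 20 °C and 23.7% of the 156 called after heat. Of the 355, 292 (82.3%) kept their sign after heat. The 240 genes higher at 20 °C had a median log2 fold change of 0.27 after heat and 0.69 at 20 °C, and the 115 lower genes had medians of -0.13 after heat and -0.57 at 20 °C. The genes were chosen by their 20 °C values, so a smaller value in other libraries is no measure of a change with heat.

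The difference of the daf-16 effect between heat and 20 °C was tested as an interaction. With edgeR it gave 0 of 14278 genes (0.0%) at an adjusted p under 0.05 and 2134 at an unadjusted p under 0.05, and DESeq2 gave 69. The edgeR count was 75 without heated daf-16 replicate 2 and 18 without heated daf-16 replicate 3. In haf-6 the log2 fold change was 1.54 after heat and 2.35 at 20 °C, and in C32E8.9 it was -2.78 after heat and -3.28 at 20 °C. Over all genes tested, 0.532% were called higher and 0.56% lower after heat. The class I median was -0.55 after heat, with 4 of 18 genes called lower and 0 higher, and -0.09 at 20 °C. Among those 4 was mtl-1, with a log2 fold change of -3.53 after heat. The class II median was 0.52 after heat, with 4 of 10 genes called higher and 0 lower, and 0.14 at 20 °C. The moulting median was 0.39 after heat, with 2 of 16 genes called, mlt-8 and ptr-4, and 0.72 at 20 °C. The oocyte median was 0.06 after heat and -0.53 at 20 °C. The gene cyp-33C8, which fell at 20 °C, had a log2 fold change of 0.20 after heat.

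**Figure D5:**
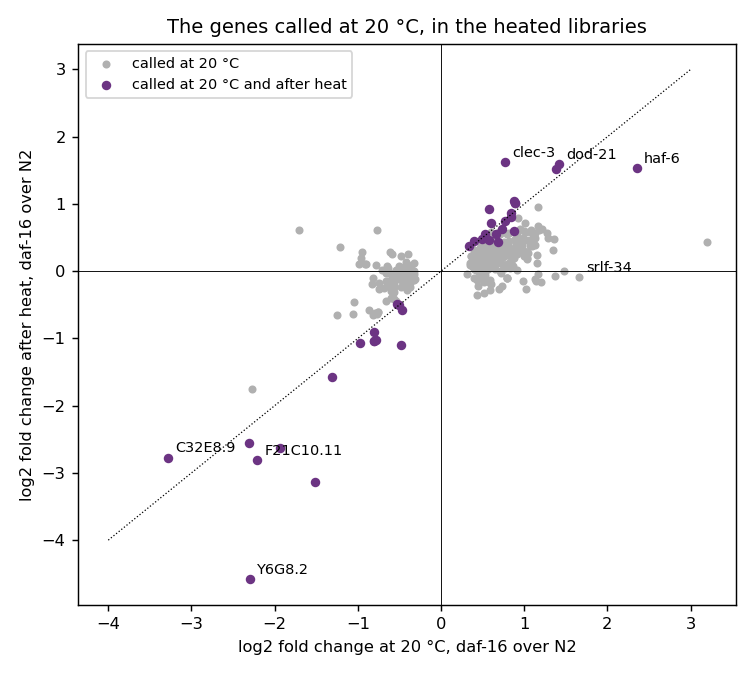
Log2 fold change of daf-16 over N2 after heat (vertical axis) against that at 20 °C (horizontal axis) for the 355 genes called at 20 °C, with the 37 called in both in purple and a dotted line of equal values. All 37 lie in the quadrants of equal sign, and many of the others lie nearer to 0 after heat than at 20 °C.

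Against the pqm-1 strain at 20 °C, daf-16 differed in 35 genes (0.245% of those tested), 15 of them higher (0.105%) and 20 lower (0.14%). The count was 15 to 20 without 1 of the 4 libraries, lowest without daf-16 replicate 3. This comparison shares the daf-16 libraries with that against N2, so the values are given side by side. Of the 355 genes called against N2, 20 were also called against pqm-1, not all in the same direction. The 240 higher genes had medians of 0.25 for daf-16 over pqm-1 and 0.40 for pqm-1 over N2. For the 115 lower genes these medians were -0.25 and -0.24. The genes were chosen by a comparison with the same N2 libraries, so the medians are no test of a shared change. For haf-6 the log2 fold change was 2.09 over pqm-1 and 2.35 over N2, and for C32E8.9 it was -3.10 over pqm-1 and -3.28 over N2. The gene dod-21 stood at 3.496 and 3.23 normalised CPM in daf-16, 10.7 and 11.8 in pqm-1, and 1.50 and 1.04 in N2. It was thus between the other 2 strains, and pqm-1 was the highest. The list of moulting genes had a median of 0.19 for daf-16 over pqm-1, of 0.72 for daf-16 over N2 and of 0.49 for pqm-1 over N2. The last 2 medians share the N2 libraries.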

How the data were processed

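The authors deposited estimated counts for RefSeq transcripts, not scaled to depth, and 13.3% of the non-zero values are not whole. The aligner, counter and genome build are not given in the sources used here, so no coordinates are given. One column under a sample name holds transcript lengths in bases, another deposited quantity, and was used as such. Of 50755 rows, 45910 matched a gene in the RefSeq annotation, which was used for names and neighbours, giving 39798 genes. The daf-16 isoforms and the coding lengths that the length column was checked against came from a WBcel235 gene annotation. The 4845 unmatched rows held 23.3 to 24.3% of the row totals. Each gene was taken as its transcript with the highest mean over the 12 libraries labelled replicate 2 or 3, rounded to whole numbers. Totals of these libraries were 18650314 to 33399358 gene-level counts.

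The tests were made in edgeR 4.0.16 under R 4.3.3, using TMM, filterByExpr, 1 fit over 6 groups of 2 and the quasi-likelihood F-test, with Benjamini-Hochberg adjustment over 14278 genes. The code was tested on simulated data. Alternatives were DESeq2 1.42.0, other scalings and filters, other choices of rows and libraries, and a replicate block. Named genes were daf-16, the 15 largest rises and falls among called genes whose log2 CPM averaged at least 1 and whose replicates did not overlap, and called members of lists or name families. Members and lists were chosen with earlier results of these data known. Of the called genes, 9 share identical counts with another gene and 200 have divided reads. Figures used matplotlib 3.10.9.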

Additional observations from a re-analysis of the deposited data

Results flagged for a closer look

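Of the named genes called between daf-16 and N2 at 20 °C, 9 also differed between the 2 mutants in a direct test (edgeR quasi-likelihood test, adjusted p under 0.05). The log2 fold change of daf-16 over pqm-1 was 2.09 for haf-6, 1.70 for Y102A5C.36 and 1.11 for dod-24, which were higher in daf-16. It was -3.10 for C32E8.9, -1.21 for clc-24, -0.90 for the saposin-like gene spp-2 and -0.78 for cyp-33C8, which were lower in daf-16 than in both other strains. It was -1.74 for dod-21 and -1.75 for the neighbouring gene cld-1, which were higher in daf-16 than in N2 and highest in pqm-1.

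The library labelled N2 20 °C replicate 1, which no comparison uses, held haf-6 at 31.1 CPM. The N2 libraries used had 9.56 and 10.8 CPM, and the daf-16 libraries had 51.6 and 51.9 CPM. In the same library C32E8.9 stood at 2.49 CPM, against 23.4 and 22.9 CPM in the N2 libraries used. Heated daf-16, the group whose name stands before this library's in the header, had haf-6 at 24.45 and 28.97 CPM and C32E8.9 at 2.15 and 2.79 CPM. In the library labelled heated daf-16 replicate 1, haf-6 stood at 48.9 CPM, near the daf-16 libraries at 20 °C, as a header displaced by 1 column would place it.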

How the results depend on the processing

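For daf-16 against N2 at 20 °C (355 genes), the count was 300 to 520 with DESeq2, other scalings, a mean count of 10 or the longest transcript, and 252 with unmatched rows kept. It was 1315 with no filter, 189 with only the groups compared, 55 with a log2 fold change of at least 1, and 5 to 260 without 1 library. All count columns by header name gave 0 genes in this and in every other comparison and list count. After heat (156) it was 237 with library size only (21.9% of them higher, against 48.7%), 1104 with no filter, 25 with only the groups compared, 56 with the fold threshold and 34 to 383 without 1 library. The interaction (0) gave 69 with DESeq2, 794 with no filter and 0 to 75 without 1 library. Daf-16 against pqm-1 (35) gave 59, 214 and 88 with DESeq2, no filter and only the groups compared, 18 with the fold threshold and 15 to 20 without 1 library. The 10 moulting genes became 5 with the fold threshold and 0 to 10 without 1 library. The 16 collagen genes became 27 with DESeq2, 53 with no filter, 10 with unmatched rows kept, 4 with the fold threshold and 0 to 3 without 1 library. The 25 neighbouring runs became 15 with no gene allowed between. The cause of these shifts was not tested. By header name srlf-34 turned to -0.84 and hsp-17 to -0.57. With a replicate block the counts were 336 at 20 °C, 188 after heat and 38 against pqm-1. The deviations of same-numbered libraries of the 2 strains correlated at 0.06 at 20 °C and at 0.22 after heat. Between heated daf-16 and N2 at 20 °C the value was -0.24. Each value rests on 1 difference per group, so it cannot show whether the numbers pair libraries. Of the 96 named genes, every one was the same side of the threshold with a mean count of 10 and with relative log expression factors, and 92 lost their call without daf-16 replicate 2. Promoter motifs were not run, since no sequence was used here. With 2 libraries a group, small changes are below what the test can call.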

Other observations

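Transporter and detoxification families outside the lists described held some calls, beside the 2.49% called among all genes tested. Of 54 cytochrome P450 genes 4 rose and 1 fell, the rises including cyp-35A4 and cyp-35A5 beside cyp-35A3. The gene cyp-35A5 had 13.1 and 12.9 normalised CPM in daf-16, against 7.43 and 8.34 in N2, a log2 fold change of 0.72. Of 11 P-glycoprotein genes 2 rose, pgp-5 and pgp-6, and of 59 UDP-glucuronosyltransferase genes 2 rose, ugt-31 and ugt-57. None of 186 nuclear hormone receptor genes, 97 fbxa genes and 36 glutathione transferase genes was called (edgeR quasi-likelihood test). Of 129 C-type lectin genes 3 rose and 2 fell.

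The octopamine synthesis genes tdc-1 and tbh-1, picked after their values were seen, both fell. The gene tbh-1, which makes octopamine out of tyramine, had 53.4 and 75.97 normalised CPM in daf-16, against 105.6 and 102.1 in N2, a log2 fold change of -0.68. The gene tdc-1, which makes tyramine, had 59.7 and 67.1 in daf-16, against 99.6 and 83.6 in N2, a log2 fold change of -0.53. The saposin-like gene spp-2 fell by 0.49 on the log2 scale at 20 °C and was lower after heat too, and the aspartyl protease gene asp-8 fell by 0.81 at 20 °C and by 0.91 after heat. The 5 nspa genes called were lower, but they share reads in every library, so they are uncertain as separate genes.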
